A study of Mus musculus with 12 samples.

Results

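Sox5 and Sox6 are 2 of the 21883 mouse protein-coding genes over which nucleosome calls of male germ cells were counted. A call belonged to a gene when its midpoint lay in the RefSeq gene body (GRCm38/mm10) or within 1000 bp of either end. Of 415758 calls in 6 lists, 201 lay in these windows, 138 in Sox5 and 63 in Sox6. The genes were chosen by the values described here, their calls by stage and MNase amount, so these values are a description and carry no test.

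The series, titled for nucleosome dynamics in spermiogenesis, maps nucleosomes at 2 stages of sperm formation, in 12 samples of SV129 males aged 8 to 12 weeks. The labels give the strain and no other genotype. Testes of 11 mice were pooled per collection, cells were separated by velocity sedimentation, and fractions of at least 85% purity were digested with micrococcal nuclease (MNase), which cuts the linker DNA between nucleosomes. One fraction carries the label Meiotic Spermatid, and the protocol calls it meiotic (M below). The other is Round Spermatid (RS below), the haploid cells that follow meiosis, with 2 times as many cells per digestion. Each was digested with 0.5, 1 or 2 U of MNase. The authors made 1 list of calls from the 2 samples of each stage and amount, so there is no spread between replicates, and every interval below is a 95% interval for counting error only. The calls measure no RNA, so the purity of the fractions could not be checked against cell type markers. The lists held 27101 to 179133 calls, and RS at 0.5 U was far larger than the others. Between 7.74% and 23.8% of a list lay in dense bins, those of 10 kb with more than 20 calls, and 0 of the calls in Sox5 or Sox6 did.

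Sox5 and Sox6 encode closely related transcription factors of the SoxD group. Both carry a high mobility group (HMG) box that binds and bends DNA, and a coiled coil through which they pair with each other, but neither has an activation or repression domain of its own. They act together with Sox9 in cartilage and also in neural and muscle development, and a short Sox5 protein lacking the amino-terminal part is known from spermatids. Both genes are very long, and most of their length is intron.

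On GRCm38/mm10, Sox5 (gene ID 20678) spans chr6:143828425-144782287, which is 954 kb. Sox6 (gene ID 20679) spans chr7:115470872-116040776, which is 570 kb. Both are read from the minus strand, so that the 5′ end has the higher coordinate. By length, with 1000 bp on each side, they rank 64 and 172 among the protein-coding genes. The gene table gives no exons, so calls in exons and introns were not separated.

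The RefSeq promoter table lists 1 start for Sox5 and 6 starts for Sox6. The start listed for Sox5 lies inside the gene, 835 kb from its 5′ end. The sequences shown are the 250 bases before the starts that had a call within 1000 bp, because these are the only listed starts of the 2 genes next to which a nucleosome was called. They are written 5′ to 3′ on the minus strand, and capitals mark ACAAT, the core bound by the HMG box, or its reverse complement ATTGT.
Sox5, chr6:143947107-143947356: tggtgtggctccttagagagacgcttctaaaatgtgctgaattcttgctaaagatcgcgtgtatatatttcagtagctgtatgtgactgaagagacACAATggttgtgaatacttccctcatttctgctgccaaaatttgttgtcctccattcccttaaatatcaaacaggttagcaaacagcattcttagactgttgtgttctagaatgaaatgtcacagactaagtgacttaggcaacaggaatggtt
Sox6, chr7:116031048-116031297: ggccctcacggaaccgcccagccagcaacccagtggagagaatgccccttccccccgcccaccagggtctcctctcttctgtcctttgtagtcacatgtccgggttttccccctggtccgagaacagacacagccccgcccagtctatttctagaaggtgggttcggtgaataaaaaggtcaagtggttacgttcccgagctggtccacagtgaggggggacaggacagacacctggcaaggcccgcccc
Sox6, chr7:115801610-115801859: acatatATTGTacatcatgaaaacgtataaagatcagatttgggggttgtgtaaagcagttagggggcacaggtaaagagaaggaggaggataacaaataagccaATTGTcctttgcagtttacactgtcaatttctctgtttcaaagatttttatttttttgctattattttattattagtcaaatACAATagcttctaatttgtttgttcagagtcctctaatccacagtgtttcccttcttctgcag

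The Sox5 window held 1 match, the first Sox6 window none and the last 3. Of 32851 such windows in the table, 27.7% held at least 1 match on either strand. The first Sox6 window is rich in G and C (60.8%), and the other 2 have 39.6% (Sox5) and 34.0%, against a median of 52.4% over all windows. A match is a string of letters and not a measured binding site.

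No call of any list overlapped a listed start window of Sox5 or Sox6. Near the Sox5 start, 1 call of RS at 0.5 U (chr6:143946782-143946921) had its midpoint 254 bp downstream. Near the Sox6 start at 115801609, both calls within 1000 bp came from RS at 1 U, and the nearer one (chr7:115801412-115801551) was centred 127 bp downstream. The 2 calls near the Sox6 start at 116031047 were also from RS at 1 U, with the nearer midpoint 835 bp downstream. These 4 calls were 4 of the 9 that RS at 1 U had in Sox6, and the 2 at each start overlapped. The M lists had 0 calls within 1000 bp of any listed start of either gene. Windows this short hold few calls at any density, and the share over all listed starts was not computed. Nothing about the stages is therefore read from the counts near starts. At the 5′ end of the Sox5 gene body itself, M at 2 U had 3 overlapping calls, the strongest centred 815 bp upstream (chr6:144783032-144783171), and the other 5 lists had 0 within 1000 bp.

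Calls over Sox5 were about as frequent in M as in RS, whereas calls over Sox6 were rare in M and near the genome's level in RS. Over Sox5 the M lists contained 13, 16 and 24 calls at 0.5, 1 and 2 U, and the RS lists 65, 8 and 12. Scaled to list size, these were 30.8 calls per 100000 (16.4 to 52.7), 26.6 (15.2 to 43.2) and 36.6 (23.4 to 54.4) in M. The RS values were 36.3 (28.0 to 46.2), 19.2 (8.29 to 37.8) and 44.3 (22.9 to 77.3). RS held both the highest and the lowest Sox5 value, so the stages overlapped. In the order of the levels, RS at 2 U, M at 2 U, RS at 0.5 U, M at 0.5 U, M at 1 U and RS at 1 U, the intervals of neighbours overlapped throughout.

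Over Sox6, M had 1, 1 and 5 calls from 0.5 to 2 U, and RS had 41, 9 and 6. Per 100000 calls, M had 2.37 (0.0600 to 13.2), 1.66 (0.0421 to 9.27) and 7.62 (2.47 to 17.8). The 3 values of RS lay close together at 22.9 (16.4 to 31.1), 21.6 (9.88 to 41.0) and 22.1 (8.12 to 48.2). The lowest Sox6 value of RS was thus above the highest of M. In the order of the levels the RS lists came first, then M at 2 U, 0.5 U and 1 U. The intervals of neighbours overlapped here too, including those of RS at 1 U and M at 2 U.

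**Figure D1:**
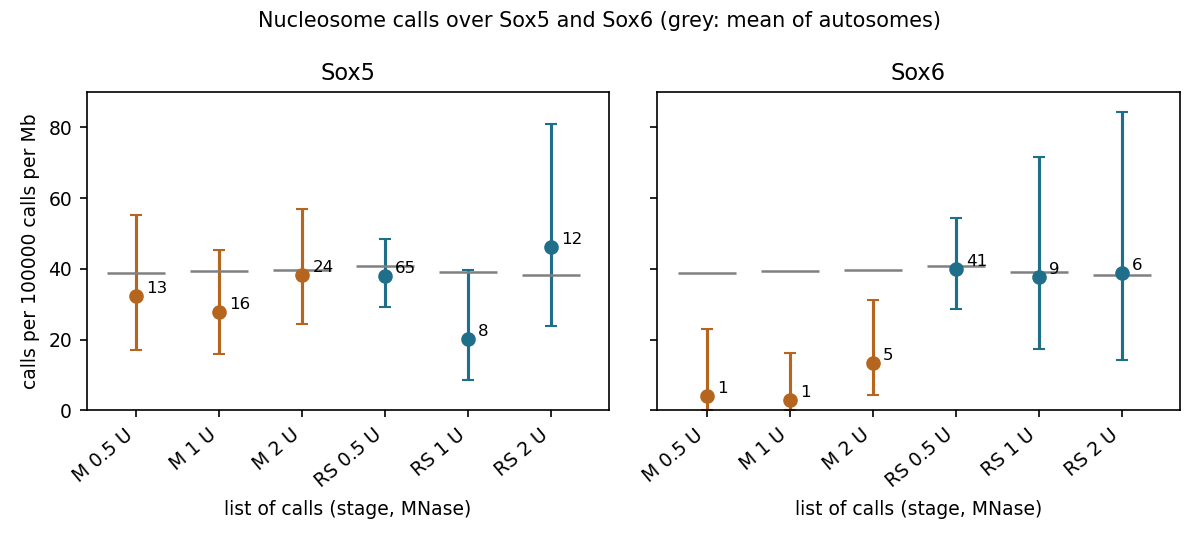
Calls per 100000 calls per Mb over Sox5 (left) and Sox6 (right) in each list, with stage and MNase amount on the x axis. Points are single lists with 95% Poisson intervals, numbers beside them are calls, and grey lines are the mean of the autosomes in that list. The 3 M lists of Sox6, with 1, 1 and 5 calls, lie below their grey lines, and all 3 RS lists lie near theirs.

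Compared per length, Sox6 was below Sox5 in M, while in RS each interval of their ratio included 1. In M, calls per Mb in Sox6 divided by those in Sox5 gave 0.129 (0.00303 to 0.856), 0.104 (0.00249 to 0.672) and 0.348 (0.104 to 0.931) from 0.5 to 2 U. In RS the same ratio was 1.05 (0.695 to 1.58), 1.88 (0.644 to 5.60) and 0.836 (0.257 to 2.41).

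The mean density of the autosomes placed these levels. Sox6 held 0.107, 0.0738 and 0.337 times that density in M from 0.5 to 2 U, and 0.980, 0.964 and 1.01 times in RS. At the autosomal mean its window would have held 37.8 calls over the 3 lists of M, where 7 were found, and 57.1 over those of RS, where 56 were found. Sox5 held between 0.706 and 0.967 times the mean in M and between 0.512 and 1.21 times in RS. For Sox5 the mean would have given 63.1 calls in M and 95.4 in RS, and 53 and 85 were found. Sox6 in M was therefore the value farthest below the autosomal level. That level includes dense bins, in which neither gene has calls. Outside them lay 138835 of 158703 autosomal M calls and 217718 of 239882 autosomal RS calls, so the expected counts are somewhat high.

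The ratio of RS to M, in calls per 100000, was 9.65 for Sox6 at 0.5 U (1.64 to 390), 13.0 at 1 U (1.80 to 569) and 2.91 at 2 U (0.739 to 12.0). The first 2 rest on 1 call in M, and the interval at 2 U includes 1. For Sox5 the ratios were 1.18 (0.643 to 2.33), 0.721 (0.267 to 1.79) and 1.21 (0.552 to 2.52). With 0.5 added to each count, the mean log2(RS/M) over the 3 amounts was 2.47 for Sox6 (1.21 to 3.73) and 0.02 for Sox5 (-0.56 to 0.61).

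RS was digested with more cells, so equal amounts were not equal MNase per cell. The amount of DNA per cell was not taken into account, so equal MNase per cell need not be equal digestion. At equal MNase per cell the Sox6 ratios were 9.11 for RS at 1 U over M at 0.5 U (1.26 to 399) and 13.3 for RS at 2 U over M at 1 U (1.61 to 612). Those of Sox5 were 0.623 (0.224 to 1.62) and 1.66 (0.718 to 3.75). Between amounts of 1 stage, the ratio of 2 U to 0.5 U for Sox6 was 3.21 in M (0.360 to 152) and 0.967 in RS (0.336 to 2.29), and for Sox5 it was 1.19 in M (0.581 to 2.54) and 1.22 in RS (0.600 to 2.28). Each of these intervals included 1, so no change from 0.5 to 2 U was detectable at this depth in either gene. Ratios to 1 U were not computed, and RS at 1 U had the lowest Sox5 value.

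The values of the other genes give the background for these ratios, which the choice of the 2 genes had used. Sox6 was at least 2-fold higher in RS in 3 of 3 comparisons at the same amount and in 2 of 2 at equal MNase per cell, and Sox5 in none. Among genes with at least 5 calls in the pair of lists, 45.0% of 3526 were at least 2-fold higher in RS at 0.5 U, 22.6% of 1680 at 1 U and 18.8% of 1650 at 2 U. At equal MNase per cell the shares were 26.3% of 1313 and 21.5% of 1418. Such a difference in a single pair is therefore common. In 4 of its 5 pairs Sox6 had 1 call in M and reached the 5 calls only through RS, so nothing is read from its tally. Of the 936 genes with at least 30 calls over the 6 lists, 47 (5.02%) had all 3 RS values above all 3 M values, Sox6 among them, and 37 had the reverse. The median of mean log2(RS/M) over these genes was -0.04, and 4 of them had a larger value than Sox6, while 438 had a larger one than Sox5. A gene with as few calls in M as Sox6 enters this set only through its calls in RS.

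Among genes of similar size Sox6 lay low in M, which describes again the values by which it was chosen. The 226 protein-coding genes whose windows span at least 500 kb had a median of 36.0 calls per 100000 per Mb in M and 34.4 in RS, as means of 3 lists. Sox6 had 6.79 in M and 38.8 in RS, and Sox5 had 32.8 and 34.8. In M, 8 of the 226 genes were lower than Sox6 and 82 were lower than Sox5. In RS, 152 were lower than Sox6 and 116 lower than Sox5. The 226 genes were not limited to the autosomes, and those of the sex chromosomes were not counted apart. Of the other 215 long genes with at least 30 calls, 0 had a larger mean log2(RS/M) than Sox6. Sox6 reached 30 calls only through RS, and the long genes below it in M all had fewer than 30 calls. They are thus missing from that set, and nothing is read from this rank.

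**Figure D2:**
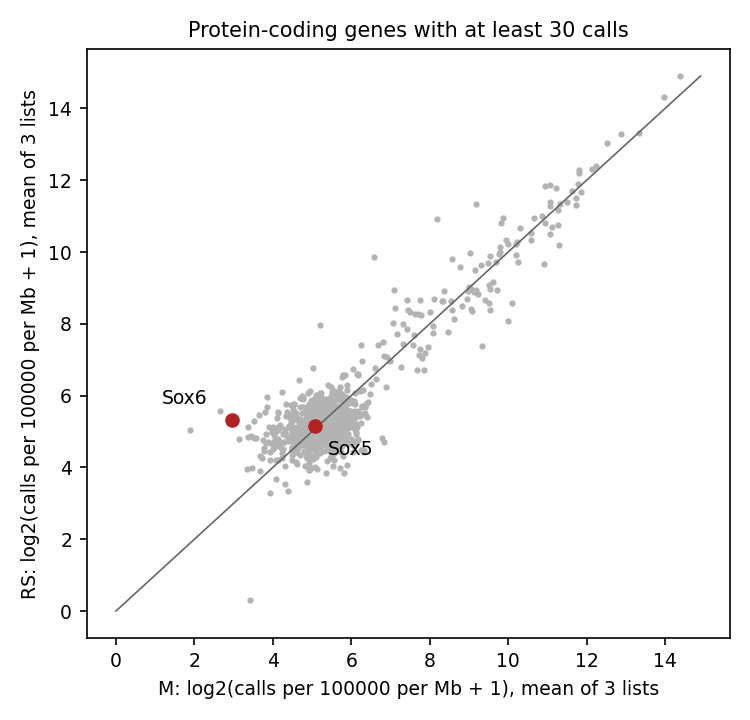
Each grey point is 1 of the 936 protein-coding genes with at least 30 calls, with the mean of the 3 M lists on the x axis and of the 3 RS lists on the y axis, both as log2 of calls per 100000 per Mb plus 1. The line marks equal values. Sox5 lies near the line within the main cloud, and Sox6 lies above the line at the left edge of the cloud, where 2 other genes lie farther left.

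The calls were then placed along each gene, divided into 4 equal parts counted from the 5′ end. In Sox6, whose parts span 143 kb, the M lists together contributed 1, 0, 0 and 6 calls and the RS lists 18, 12, 14 and 12. Over the first 3 parts together, a stretch of 429 kb, the M lists had 1 call and the RS lists 44. By amount, from 0.5 to 2 U, there were 1, 0 and 0 in M and 31, 8 and 5 in RS. These counts are not scaled to list size, and most RS calls came from the largest list. The last part, at the 3′ end, held 6 calls of M and 12 of RS. From 0.5 to 2 U these were 0, 1 and 5 in M and 10, 1 and 1 in RS, so most of the RS calls came from the largest list. In this part RS was higher at 0.5 U and M at 2 U, so the stages did not differ in 1 direction there. Past the midpoint of the gene lay 6 of the 7 M calls (85.7%, exact binomial interval 42.1 to 99.6) and 26 of the 56 RS calls (46.4%, 33.0 to 60.3).

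The single Sox6 call of M at 0.5 U lay 131 kb from the 5′ end, that of M at 1 U 480 kb from it, and the 5 calls of M at 2 U were all in the last part. With the gene divided into 10 equal parts, the 6 calls of RS at 2 U fell into 6 of them. In RS at 0.5 U, 11 of 41 calls lay in the second of these parts from the 5′ end, and its longest stretch without a call was 68.7 kb.

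In Sox5, whose parts span 239 kb, the M lists together contributed 11, 14, 15 and 13 calls and the RS lists 20, 28, 18 and 19. Past the midpoint lay 52.8% of the M calls (38.6 to 66.7) and 43.5% of the RS calls (32.8 to 54.7). Calls of both stages occurred in each of 10 equal parts of Sox5. Single lists were patchy: M at 2 U had 11 of its 24 calls within chr6:144059444-144075773, between 707 and 723 kb from the 5′ end, at 4 separate positions. In the same 16 kb, RS at 0.5 U had 3 calls, and the other 4 lists had 0.

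**Figure D3:**
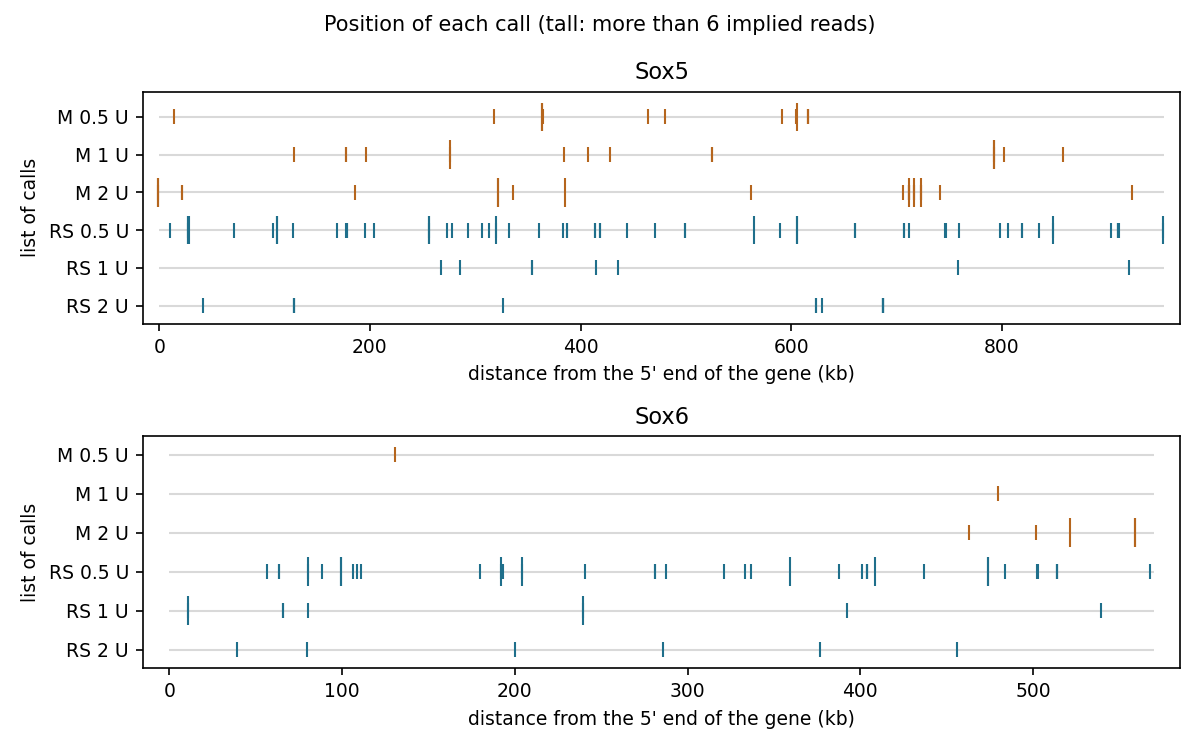
Distance of each call from the 5′ end of Sox5 (top) and Sox6 (bottom) in kb, with 1 row per list. Each tick is a call, and tall ticks are calls with more than 6 implied reads. In Sox6 the M rows hold 1, 1 and 5 calls (ticks of overlapping calls merge), all but 1 of them toward the 3′ end, while the RS calls are spread over the gene.

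The 1 Mb on each side of the windows gave a local level measured in the same lists. Around Sox6 the flanks contained 19, 35 and 49 M calls and 137, 23 and 14 RS calls from 0.5 to 2 U. Per Mb, Sox6 had 0.184, 0.0999 and 0.357 times the calls of its flanks in M, and 1.05, 1.37 and 1.50 times in RS. The mean log2(RS/M) of this relative density was 2.41 (1.08 to 3.75). Sox6 was sparse in M against the sum of both flanks. The calls in the gene are those by which Sox6 was chosen, so this ratio is no separate support and its interval no test. The flanks themselves were uneven in M. The 1 Mb upstream of Sox6 contained 6, 10 and 13 M calls and 64, 11 and 8 RS calls, and the 1 Mb downstream 13, 25 and 36 M calls and 73, 12 and 6 RS calls. Per 100000 calls per Mb, the upstream side was at 14.2, 16.6 and 19.8 in the M lists and 35.7, 26.4 and 29.5 in the RS lists, against 38.9 to 39.6 and 38.2 to 40.8 for the autosomes. M values below those of RS and of the autosomes thus extended past the 5′ end of Sox6.

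Around Sox5 the flanks contained 25, 27 and 50 M calls and 102, 31 and 17 RS calls. Sox5 had 1.09, 1.24 and 1.00 times the density of its flanks in M, and 1.33, 0.540 and 1.48 times in RS, with a mean log2(RS/M) of -0.11 (-0.83 to 0.61). Sox5 was thus close to its neighbourhood in M, and no stage difference was detectable on this measure. Within the flanks, 8 protein-coding genes start on the upstream side of Sox5 and 3 end on its downstream side, against 6 and 5 for Sox6, so gene number was similar around the 2 genes.

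**Figure D4:**
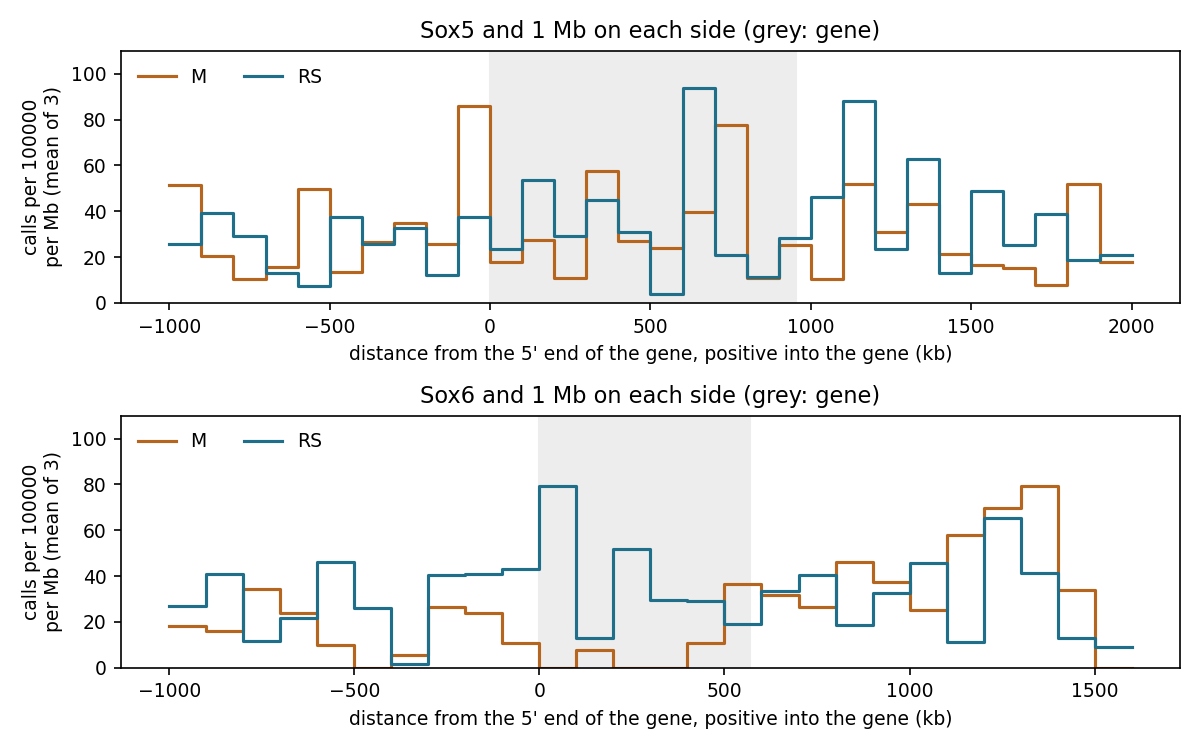
Calls per 100000 per Mb in 100 kb bins against distance from the 5′ end of Sox5 (top) and Sox6 (bottom), as the mean of the 3 lists of M and of RS, with the gene shaded. Over the first 500 kb of Sox6 the M line lies between 0 and 10.6 and below the RS line. In the bin from 500 kb, which reaches past the 3′ end of Sox6, the lines cross, with M at 36.5 and RS at 19.2. Over Sox5 the lines cross repeatedly.

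The nearest protein-coding genes outside the windows are shorter, and their calls ranged from 0 to 15 in a stage. Upstream of Sox6, 40.6 kb away, 1110004F10Rik had 0 calls in M and 3 in RS, all at 0.5 U. Downstream, 620 kb away, Insc, a gene of spindle orientation, had 15 in M and 13 in RS. Beside Sox5, Bcat1, which encodes a branched-chain amino acid transaminase, had 6 in M and 3 in RS, and Etnk1, an ethanolamine kinase gene, had 3 and 2. Within the 2 genes, 8 noncoding genes overlap Sox5 or Sox6. The antisense Sox5os3 had 1 call and Sox6os had 0, and the other 6 had 0 to 2 each, so that these genes held few of the calls.

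Each call carries a p-value of the authors, from which a read count can be implied. The smallest count is 6 reads in every list. In Sox5, 111 of 138 calls (80.4%, 72.8 to 86.7) were at this minimum, and in Sox6 49 of 63 (77.8%, 65.5 to 87.3). Over whole lists the share was 65.4% to 69.5%, dense bins included. Calls over the 2 genes were thus mostly the weakest that the lists hold, and a gain or loss of 1 read decides whether such a call is present.

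Read counts are not scaled for depth. The highest count was 9 reads in Sox5, in RS at 0.5 U, 111 kb from the 5′ end (chr6:144670902-144671041), and 7 further Sox5 calls had 8 reads. Of these, 3 formed a chain with a call of 6 reads at chr6:144754457-144754661 in RS at 0.5 U, about 28 kb from the 5′ end. In Sox6 the highest count was 8 reads, again in RS at 0.5 U, 192 kb from the 5′ end (chr7:115848907-115849046), and 13 calls had 7 reads. Above the minimum, the M lists gave 0, 0 and 3 calls in Sox6 and the RS lists 9, 2 and 0. For Sox5 the M lists gave 3, 3 and 8 such calls and the RS lists 13, 0 and 0. At 2 U, calls above the minimum thus occurred in M and not in RS in both genes. With these calls alone mean log2(RS/M) was 1.19 for Sox6 (-1.27 to 3.65) and -1.71 for Sox5 (-3.77 to 0.34). Both intervals include 0, whereas with all calls that of Sox6 lay above 0 (2.47, 1.21 to 3.73). They cover counting error only, and Sox6 was chosen by these values, so neither interval is a test of the stages.

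Overlapping calls were common, and merging them left 91 positions in Sox5 (33 in M and 58 in RS) and 47 in Sox6 (6 and 41). Few positions recurred between lists. In Sox5, 2 of 53 M calls (3.77%, 0.460 to 13.0) had an RS call within 73 bp, at 1 place, chr6:144604544-144604726, in M at 1 U and RS at 0.5 U. In Sox6, 0 of 7 M calls had one (upper limit 41.0%). The single recurrent place in Sox6 was chr7:115960274-115960466, 80.4 kb from the 5′ end, in RS at 0.5 U and 1 U. Outside dense bins, 6.74% of all autosomal M calls had an RS call within 73 bp. The intervals of both genes include that share.

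The other Sox genes put the pair in context. The family of 20 genes had 65 calls in M and 155 in RS, of which Sox5 and Sox6 held all but 5 and 14. With both included, 6 members had more calls per 100000 in RS, 2 had more in M and 12 had none. Of all protein-coding genes 8413 had more in RS, 5571 more in M and 7899 none, so RS was higher in 60.2% of the genes with calls. The medians over the 6 lists were 0 calls for the family and 2 for all genes, and for all genes mean log2(RS/M) of the summed calls was 0.18 (0.16 to 0.19). For the summed calls of the family it was 0.68 (0.20 to 1.15), and with only calls above the minimum it turned to -0.82 (-2.48 to 0.84). Without Sox5 and Sox6 it was 1.12 (-0.70 to 2.95).

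Sox13, the third SoxD gene, spans 42.2 kb and had 1 call in M and 2 in RS. Sox30, known for its role in spermatids, spans 38.9 kb and had 2 and 4. All 4 RS calls of Sox30 came from the largest list, RS at 0.5 U. Scaled to list size, Sox30 was among the 2 members higher in M, so these sums do not rank the stages. Sox17, an endoderm factor, had 1 and 3, and Sox11, a factor of developing neurons, had 0 and 3. The remaining family members are short genes with 0 to 2 calls each. Lack of calls in them says little, since a short window holds few calls at any density.

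Genes linked to Sox5 and Sox6 were Catsper1, Spag6l and Spag16 of the sperm tail and 7 genes of cartilage. Together these 10 genes had 23 calls in M and 83 in RS, with 6 higher in RS, 2 higher in M and 2 without calls. RS was thus higher in 6 of the 8 with calls, against 60.2% of all protein-coding genes with calls. Their median was 4 calls over the 6 lists, against 2 for all genes. For the summed calls, mean log2(RS/M) was 1.61 (0.79 to 2.42), against 0.18 for all genes. Spag16, which encodes a protein of the axoneme's central apparatus, gave most of them. It spans 898 kb, with 0, 9 and 4 calls in the M lists and 39, 4 and 11 in the RS lists. Acan, the aggrecan gene, had 1 call in M and 6 in RS, and Hapln1, a link protein gene, had 6 and 7. From 0.5 to 2 U the Hapln1 calls were 1, 1 and 4 in M and 5, 2 and 0 in RS. Scaled to list size, Hapln1 was among the 2 genes higher in M.

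The genes most like the pair over the 6 lists were found by the Euclidean distance of log2(calls per 100000 per Mb + 1), among genes with at least 30 calls. For Sox5 they were the adhesion gene Ntm (distance 0.38), Lpp (0.44) and the receptor phosphatase gene Ptprg (0.59), against a median distance of 2.47 over 935 genes. Ntm, of 969 kb, had 52 M calls and 81 RS calls. For Sox6 the nearest were Exoc6b (2.49), Fam172a (2.51) and the calcineurin gene Ppp3ca (2.62), against a median of 5.13. Exoc6b, an exocyst gene of 452 kb, had 13 calls in M and 39 in RS. Fam172a had 10 and 41, and Ppp3ca 6 and 26. The nearest genes to Sox6 were thus farther from it than those of Sox5 were from Sox5, and their M levels per Mb were above that of Sox6 in each list except Ppp3ca at 2 U (11.3 against 13.3 calls per 100000 per Mb).

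At the edges of the windows, the Sox5 calls just inside lay 136 bp (M at 2 U, 5′ side) and 2096 bp (RS at 0.5 U, 3′ side) from the limit, and those just outside 5719 bp (RS at 0.5 U) and 4044 bp (M at 2 U) from it. For Sox6 the calls just inside were 11.6 kb (RS at 1 U, 5′ side) and 2.97 kb (RS at 0.5 U, 3′ side) from the limit, and those just outside 3.20 kb (RS at 0.5 U) and 17.6 kb (M at 1 U).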

How the data were processed

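MNase-seq of 12 samples in 6 groups of 2 was analysed. Per the series' design text, the authors combined both samples of a group into 1 list of nucleosome calls. The deposited lists hold intervals of 140 bp, each with the authors' p-value and no read counts. Alignment tool and build, per the submitters' processing notes, were STAR 2.5.2a and GRCm38/mm10. Which caller and cutoff were used is not given in the sources used here. Read counts were implied by matching the p-values to Poisson tails (largest difference of natural logarithms 1.06e-10, minimum 6 reads, mean 0.409 to 0.696 reads). The number of reads behind a list is unknown.

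Calls were assigned by midpoint (start + 70) to RefSeq genes. Intervals are exact Poisson, binomial (Clopper-Pearson) or conditional binomial at 95%. They cover counting error only, and overlapping calls make them too narrow. Mean log2 ratios add 0.5 calls and have normal intervals. A place was shared within 73 bp. No test was made. The named genes were the 2 members, Sox13, Sox30 and the 2 other Sox genes with most calls, linked genes with at least 5 calls, the nearest protein-coding genes, the 3 most like genes per member and the strongest calls, of which 3 per gene were planned but tied. Other genes, such as Catsper1, were named outside that rule. The members and lists were chosen with earlier results of these data known. The steps were tested on simulated data. Python 3.11.15, numpy 2.4.6, pandas 2.3.3 and scipy 1.17.1 were used. No genome sequence was used here, and promoter sequences are from RefSeq (GRCm38.p6).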

Additional observations from a re-analysis of the deposited data

How the results depend on the processing

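Of 47 recomputed values, 41 stayed within the counting interval of the reported one. Restricting to calls of more than 6 implied reads moved mean log2(RS/M) to -1.71 for Sox5 and 1.19 for Sox6, that relative to flanks to -1.68 and 1.07, and reversed that of the Sox family to -0.82. The cause was not tested; fewer calls remain. Without 0.5 U, 0% of the Sox5 M calls had an RS call within 73 bp. Under the other 9 alternatives, the Sox6 ratio ran from 2.11 to 2.97 with intervals above 0. These were other windows, merged calls, other list sizes, leaving out an amount, and equal MNase per cell. For flanks of 500 kb the relative ratio was 1.83 (0.36 to 3.30). All of them recount largely the same calls by which Sox6 was chosen. They show how far the value depends on the processing and do not test the stages. With merged calls, the interval of the Sox6 difference in the share of calls past the midpoint, RS minus M, included 0 (-34.6 percentage points, -70.8 to 1.67, against -39.3 unmerged). No paired analysis was possible because each list was made from both replicates, and for the same reason no replicate could be left out. Depth limits every Sox6 value in M, which rests on 7 calls.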

Other observations

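Genes of Sertoli and Leydig cells, which surround germ cells in the testis, were counted as 1 list of 15. They had 30 calls in M and 38 in RS, with 5 genes higher in RS per 100000 calls, 3 higher in M and 7 without calls, and a mean log2(RS/M) of 0.30 (-0.58 to 1.18). RS was higher in 62.5% of those with calls, near the 60.2% of all protein-coding genes with calls, and 46.7% had no calls, against 36.1% of all. Single members, named after their values were seen, went both ways. Gata4, a transcription factor gene of Sertoli cells, had 0 calls in each M list and 6, 4 and 3 in RS from 0.5 to 2 U. Fshr, the receptor of follicle-stimulating hormone, had 13, 9 and 2 in M and 10, 2 and 1 in RS. These calls mark nucleosome positions and not RNA, so they do not measure how many such cells a fraction held.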
